A study of Mus musculus with 4 samples.

Results

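MHC class II molecules show peptides from material taken up by a cell to CD4 T cells, and 8 mouse genes of that system were followed here through the small-intestinal crypt epithelium after bone marrow transplantation. The genes are H2-Aa, H2-Ab1 and H2-Eb1, which encode the chains of the peptide-binding molecules, Cd74 (the invariant chain), H2-DMa, H2-DMb1 and H2-DMb2 (the chains of the peptide exchange factor H2-DM) and Ciita (the class II transactivator). They were chosen by symbol, and they are 8 of the 31053 genes in the deposited count matrices. All mice were female C57BL/6 recipients, 8 to 12 weeks old, given lethal irradiation and a marrow transplant 7 days earlier. The donor was C57BL/6 in the syngeneic group (2 libraries) and BALB/c in the allogeneic group (2 libraries), and the allogeneic recipients are labelled as having graft-versus-host disease. Each library is a separate pool of 3 to 4 mice, so a p-value of allogeneic against syngeneic measures the spread between pools. With 2 pools against 2, an exact two-sided permutation p cannot be under 0.333. Irradiation and transplantation are shared by both groups, and no library of untreated mice was analysed here. The library names begin with KO for both groups, which the labels do not explain.

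As background, class II chains are made together in the endoplasmic reticulum, where the invariant chain Cd74 fills the binding groove and directs the complex to endosomes. There H2-DM exchanges the remaining fragment of Cd74 for a peptide, and the loaded molecule goes to the cell surface. Ciita is the master switch of the system: it does not bind DNA itself but docks on RFX, CREB and NF-Y proteins that sit on the X and Y boxes of class II promoters, and interferon gamma induces it. Epithelial cells of the small intestine are among the non-immune cells known to make class II molecules, in villus enterocytes and in Lgr5-expressing stem cells, and class II on intestinal epithelium is studied in graft-versus-host disease as a way to reach donor CD4 T cells.

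On GRCm38 (GENCODE M21), 6 of the 8 genes lie within 197 kb of chromosome 17, from 34119541 to 34316674. H2-DMa (17:34119541-34139101), H2-DMb2 (17:34143307-34151555) and H2-DMb1 (17:34153072-34160230) follow each other on the plus strand. H2-Ab1 (17:34257689-34269419, plus), H2-Aa (17:34282744-34287823, minus) and H2-Eb1 (17:34305867-34316674, plus) lie downstream of them. Ciita is at 16:10480059-10528418 on the plus strand, Cd74 is on another chromosome, and all 8 are annotated as protein-coding.

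Promoter sequences in the RefSeq table (GRCm38.p6) matched 5 of the 8 members by symbol. Both strands of the 250 bases before each start were searched for the X box core (the first capitals of the H2-Eb1 window, with any base allowed where H2-Eb1 and H2-DMb2 differ), TGATTGG (a Y box, the CCAAT motif read on the other strand) and TGACGTCA (the cAMP response element that forms part of some X boxes). These motifs were chosen after the sequences had been seen, so the matches are a description. The windows below are shown because H2-DMb1 and H2-DMb2, which behaved differently in the counts, carry nearly the same X and Y box region. Each is written in the direction of the gene, and capitals mark the matched letters.
H2-Eb1, chr17:34305763-34305822, plus strand: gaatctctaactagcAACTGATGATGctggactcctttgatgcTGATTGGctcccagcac
H2-DMb1, chr17:34153084-34153144, plus strand: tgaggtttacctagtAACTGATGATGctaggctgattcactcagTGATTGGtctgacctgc
H2-DMb2, chr17:34145113-34145173, plus strand: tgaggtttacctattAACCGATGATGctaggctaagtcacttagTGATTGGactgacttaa
H2-Aa, chr17:34287857-34287912, minus strand: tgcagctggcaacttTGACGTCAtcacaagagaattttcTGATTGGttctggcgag
The X-type and Y-type letters were 17 bases apart in H2-Eb1, 18 in H2-DMb1 and in H2-DMb2, and 16 in H2-Aa. Over all 32851 promoters of the table, 16 held the X box core (0.0487%), 2375 held TGATTGG (7.23%) and 508 held TGACGTCA (1.55%). The X box core and TGATTGG stood together in 7 promoters (0.0213%), those of H2-DMb1, H2-DMb2, H2-Eb1, Nubp2 and Spsb3, and TGACGTCA and TGATTGG stood together in 42 (0.128%). The 2 promoter windows listed for H2-DMa held none of these motifs.

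The files hold 3580 and 3257 cell barcodes in the syngeneic libraries and 3387 and 6341 in the allogeneic ones, with 14961466 to 26677842 UMIs (unique molecular identifiers, 1 per counted RNA molecule) per library. After filters on genes, UMIs, mitochondrial share and doublets, 2871, 2457, 2053 and 4815 cells remained. Every list of 4 values gives the syngeneic libraries 1 and 2 first and then the allogeneic libraries 1 and 2. Barcodes over the mitochondrial limit of 20% made up 14.6%, 14.9%, 27.2% and 11.2%. No pair of libraries shared more than 7 barcodes. Cells were clustered without the 8 genes, and clusters were named from marker lists: 7 epithelial classes had at least 20 cells in every library. Of the markers, 19 of 20 for enterocytes and all of those for the other 6 classes were higher in their own class than in the other epithelial cells. The same markers had named the clusters in the same cells, so this largely follows from the naming and is no separate support for it. T or NK-like cells numbered 14, 33, 230 and 199 and myeloid-like cells 0, 0, 13 and 5, and the remaining 11702 cells are called epithelial. The enterocyte-like class is made of different clusters in the groups: clusters led by Plb1 and by Clca4a in the syngeneic libraries, and clusters led by Rbp2, by Ly6d and by Apob in the allogeneic ones. The Apob-led cluster came almost whole from allogeneic 1 and had a median mitochondrial share of 14.9%. Cycling progenitor-like clusters led by Ly6c1 and by AW112010 hold few syngeneic cells: they had 823 and 510 of the 1385 such cells of allogeneic 2, but 118 and 72 of the 465 of allogeneic 1. A goblet-like and a stem-like cluster, both with cells of every library, had the immediate-early genes Egr1 and Fos among their leading genes.

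In the syngeneic libraries class II UMIs were counted in every epithelial class, and the level was highest in the absorptive and stem-like cells and lowest in goblet-like and Paneth-like cells. Levels are UMIs per 1000000 UMIs of the class (CPM), summed over the cells of a class in a library. The classes were compared without a test because clusters come from the same cells. CPM use the raw totals, while the edgeR fold changes given further on use totals rescaled by the TMM method. A fold change can therefore differ from the ratio of the CPM values beside it. The 8 genes together gave 8298 and 8418 CPM in enterocyte-like cells, the absorptive cells, and 6062 and 5724 CPM in stem-like cells. Cycling progenitor-like cells gave 4714 and 4595 CPM. The values of these 3 classes did not overlap with each other or with those of any other class. Enteroendocrine-like cells, which make gut hormones, gave 3551 and 3292 CPM, and tuft-like cells, which sense luminal chemicals, gave 3610 and 3006 CPM. These 2 classes overlapped. Goblet-like cells, which make mucus, gave 2836 and 2498 CPM, and Paneth-like cells, the defensin-secreting cells of the crypt base, gave 2106 and 1741 CPM. Goblet-like values lay below every tuft-like value and above every Paneth-like value. T or NK-like cells, used further on as a measure of free RNA, held 4575 CPM in syngeneic 1 (14 cells), above the tuft-like, enteroendocrine-like, goblet-like and Paneth-like values of that library. In syngeneic 2 (33 cells) they held 1481 CPM, below every epithelial class. The enterocyte-like mean of 8358 CPM ± 84.6 (SD, n = 2) was 4.35 times the Paneth-like mean of 1924 CPM ± 259 (SD, n = 2).

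In the allogeneic libraries the order of the classes was much flatter. Goblet-like cells, next to last in the syngeneic libraries, were first with 10679 and 10001 CPM. Enterocyte-like cells followed with 10588 and 9396 CPM and stem-like cells with 9876 and 9484 CPM, and each of these 3 classes overlapped with the next. Cycling progenitor-like cells gave 8046 and 8833 CPM, Paneth-like cells 6636 and 9208 CPM and enteroendocrine-like cells 7329 and 7766 CPM. Cycling progenitor-like and Paneth-like values overlapped, as did Paneth-like and enteroendocrine-like values, while stem-like values lay above every cycling progenitor-like value. Tuft-like cells had the lowest mean with 5687 and 6967 CPM, below every enteroendocrine-like value but overlapping with the Paneth-like values. The highest class mean was 1.63 times the lowest. Paneth-like cells varied most between the 2 allogeneic libraries, at 7922 CPM ± 1819 (SD, n = 2).

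**Figure D1:**
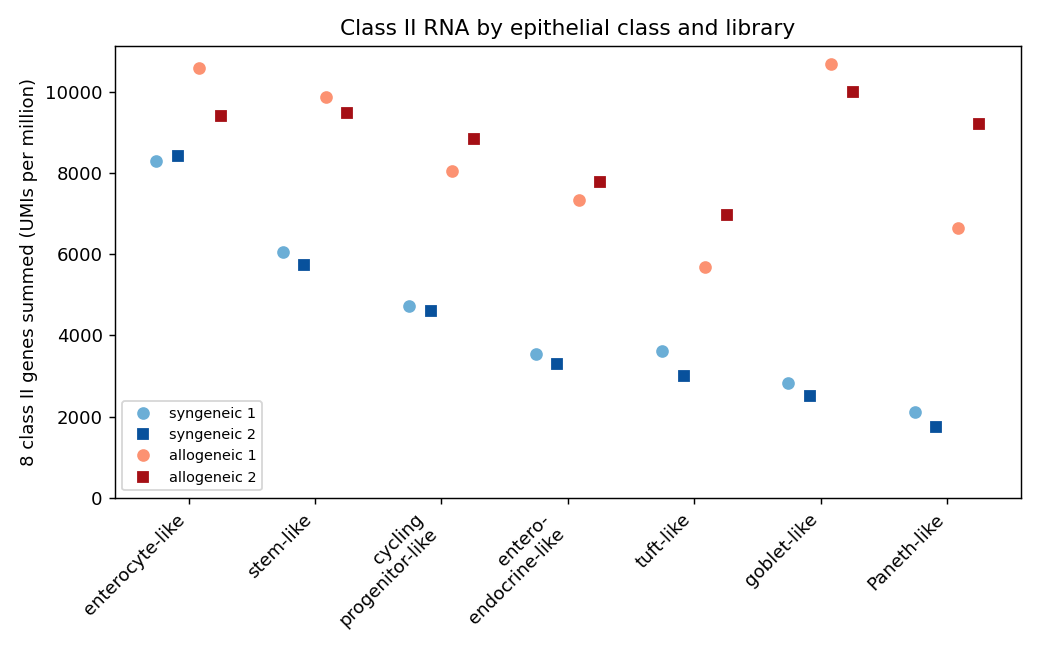
UMIs of the 8 class II genes summed, in CPM (vertical axis), in 7 epithelial classes (horizontal axis), with 1 point for each library. The syngeneic points lie at 8298 and 8418 in enterocyte-like and at 2106 and 1741 in Paneth-like cells, and the allogeneic points lie between 5687 and 10679 with no such slope.

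The members shared this syngeneic order with exceptions. Cd74 was highest in enterocyte-like cells (4646 and 4619 CPM) and lowest in Paneth-like cells (1218 and 1018 CPM), and H2-Aa ranged over the same classes from 1430 and 1419 CPM to 254 and 197 CPM. H2-Ab1 (1132 and 1284 CPM) and H2-Eb1 (712 and 701 CPM) were also highest in enterocyte-like cells and lowest in Paneth-like cells, although the H2-Eb1 values of enterocyte-like and stem-like cells (670 and 679 CPM) lay close together. H2-DMa differed: its highest syngeneic levels were in stem-like cells (184 and 167 CPM), ahead of cycling progenitor-like (161 and 153 CPM) and enterocyte-like cells (146 and 132 CPM). Ciita was also highest in stem-like cells, at 51.4 and 42.4 CPM, but enteroendocrine-like cells (49.7 and 32.0 CPM, from 20 and 6 UMIs) overlapped with them. Ciita was lowest in goblet-like cells at 20.1 and 16.9 CPM. Among enterocyte-like cells, the Clca4a-led cluster (58 and 81 syngeneic cells) had no Ciita UMI, with 5040 and 5547 CPM of the 8 genes, while the Plb1-led cluster (384 and 418 cells) had 46.8 and 43.7 CPM of Ciita and 8644 and 8781 CPM of the 8 genes.

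The balance between members, taken as a ratio of UMIs within a class and library, also varied between classes. In enterocyte-like cells H2-Eb1 had 0.498, 0.494, 0.473 and 0.407 UMIs per UMI of H2-Aa. In stem-like cells the same ratio was 1.05, 1.17, 1.10 and 0.931, and in cycling progenitor-like cells it was 0.974, 0.895, 1.01 and 0.943. In all 4 libraries the enterocyte-like ratio was the lowest of the 7 classes. H2-DMa per H2-Aa was likewise low in enterocyte-like cells, at 0.102, 0.0931, 0.104 and 0.104, against 0.290, 0.289, 0.233 and 0.202 in stem-like cells. Both allogeneic libraries lay below both syngeneic libraries in this last ratio in stem-like, cycling progenitor-like, goblet-like, Paneth-like, enteroendocrine-like and tuft-like cells, and above them in enterocyte-like cells.

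Over all epithelial cells together, the allogeneic libraries held 2.09 times the class II level of the syngeneic ones. H2-DMb2, which met the filter on low counts only through the allogeneic libraries, was the member that passed the test. The 8 genes summed to 4423, 4260, 9146 and 8990 CPM. H2-Aa was at 563, 542, 1249 and 1201 CPM, H2-Ab1 at 542, 551, 1269 and 888 CPM, and H2-Eb1, whose protein lacks its usual alpha chain partner in C57BL/6 mice, at 441, 406, 1104 and 815 CPM. For each of these chains both allogeneic libraries lay above both syngeneic libraries. Cd74 was at 2598, 2502, 4977 and 5620 CPM and Ciita at 31.8, 28.6, 68.1 and 35.7 CPM, so that allogeneic 2 was only just above the syngeneic libraries in Ciita. H2-DMb2 stood at 0.603, 0.298, 30.2 and 23.7 CPM, from 10, 4, 412 and 576 UMIs. It was close to absent in both syngeneic libraries and rose by a log2 fold change of 5.88 (SE 0.34, edgeR quasi-likelihood adjusted p = 0.0239). Of the 12036 genes tested, 17 rose (0.141%) and 1 fell, and 1 of the 8 members was among those that rose. The other 7 members had log2 fold changes from 0.77 (Ciita) to 1.20 (H2-Eb1 and H2-Aa) and edgeR adjusted p-values from 0.251 to 0.361. The median over the 8 members was 1.06, against 0.03 over all genes tested. All 8 members were higher in both allogeneic than in both syngeneic libraries, as were 18.3% of all genes. DESeq2 called 5 of the 8 and 1.51% of all genes higher. Without syngeneic 1 or syngeneic 2, 1 member was called (0.522% and 0.621% of all genes). With allogeneic 1 or allogeneic 2 left out, 8 of 8 passed, but 23.6% and 10.7% of all genes were then called higher too, since only the syngeneic pair is left to estimate the spread. The mix of classes differs between these libraries, and with the classes in equal amounts H2-DMb2 had a log2 fold change of 6.28 (adjusted p = 0.0014) and was again the 1 member called.

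Within classes the median fold change of the members was largest in Paneth-like and goblet-like cells. The edgeR quasi-likelihood test called 8 of 8 members higher in Paneth-like cells (1.21% of all genes were called higher there), 4 of 8 in goblet-like cells (0.286%), 2 of 8 in stem-like cells (1.25%), 2 of 8 in cycling progenitor-like cells (2.2%) and 1 of 6 tested in enteroendocrine-like cells (0.652%). No member passed in tuft-like cells (0 of 6, with 0.645% of all genes called higher) or enterocyte-like cells (0 of 7, with 1.23%). At an unadjusted edgeR p under 0.05, 5 of 6 members were higher in tuft-like and 0 of 7 in enterocyte-like cells. In either direction 237 of 3564 and 1166 of 7382 genes had such a p. DESeq2 called 0 members in both classes, with 20 of 4012 and 152 of 8927 genes called higher. No member was called lower in any class. The median log2 fold change of the members was 1.97 in Paneth-like, 1.94 in goblet-like, 1.11 in enteroendocrine-like, 0.96 in tuft-like, 0.90 in cycling progenitor-like, 0.86 in stem-like and 0.27 in enterocyte-like cells, while the median over all genes lay between 0.00 and 0.03. The filter on low counts left out H2-DMb2 in enterocyte-like cells, and H2-DMb2 and Ciita in enteroendocrine-like and tuft-like cells. In the other classes H2-DMb2 met that filter only through its allogeneic counts and is among the members called. The counts and medians of the classes therefore rest on unlike sets of members. In each of the Paneth-like, goblet-like, stem-like and cycling progenitor-like classes, 8 of 8 members were higher in both allogeneic than in both syngeneic libraries (15.4%, 13.9%, 17.1% and 17.6% of all genes were). The same held for 6 of 6 in enteroendocrine-like (18.2%) and in tuft-like cells (14.7%), and for 3 of 7 in enterocyte-like cells (14.5%). These counts depend on single libraries. Without syngeneic 1 or without syngeneic 2, edgeR called 2 members in Paneth-like, 1 in goblet-like, 1 in stem-like, 1 in cycling progenitor-like, 0 in enteroendocrine-like, 0 in tuft-like and 0 in enterocyte-like cells. In these classes 0.564%, 0.495%, 0.586%, 1.2%, 0.258%, 0.572% and 0.934% of all genes were called higher without syngeneic 1, and 0.636%, 0.551%, 0.465%, 1.59%, 0.189%, 0.404% and 0.88% without syngeneic 2. Without allogeneic 1 it called 7 in Paneth-like, 8 in goblet-like, 6 in stem-like, 8 in cycling progenitor-like, 5 in enteroendocrine-like, 5 in tuft-like and 3 in enterocyte-like cells, where 2.85%, 15.5%, 4.86%, 19.6%, 2.47%, 6.68% and 21.1% of all genes were called higher. Without allogeneic 2 it called 8, 8, 8, 8, 4, 4 and 2 in the same classes, where 3.07%, 9.31%, 5.99%, 9.63%, 1.12%, 1.71% and 9.57% of all genes were.

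**Figure D2:**
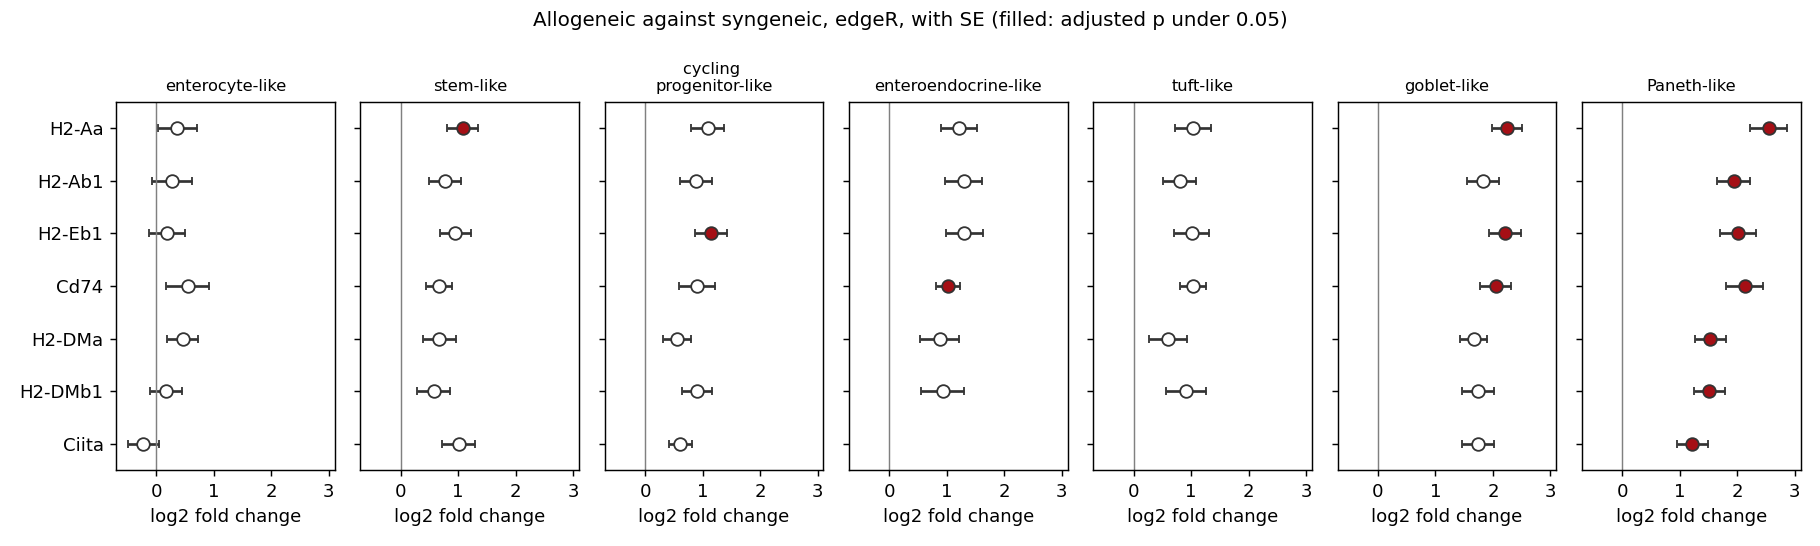
log2 fold change of 7 members, allogeneic against syngeneic (horizontal axis), in 7 epithelial classes (panels), with the standard error from edgeR as bars and filled points at an adjusted p under 0.05. H2-DMb2 is not drawn, Ciita was not tested in 2 classes, and the Paneth-like and goblet-like points lie farthest to the right.

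Of the peptide-binding chains, all 3 rose in Paneth-like cells, 2 in goblet-like cells and 0 in enterocyte-like cells. In Paneth-like cells H2-Aa was at 254, 197, 1014 and 1468 CPM, and H2-Ab1 was at 268, 239, 951 and 909 CPM. Both allogeneic libraries stood far above the syngeneic ones, and H2-Aa rose by 2.54 on the log2 scale (SE 0.32, edgeR adjusted p = 3.96e-05). H2-Ab1 rose by 1.94 (SE 0.29) and H2-Eb1 by 2.01 (SE 0.30), with an edgeR adjusted p of 0.00043 for each. In goblet-like cells H2-Aa was at 326, 280, 1465 and 1242 CPM and H2-Eb1 at 282, 232, 1323 and 946 CPM. H2-Aa rose there by 2.24 (SE 0.27, edgeR adjusted p = 0.0355) and H2-Eb1 by 2.21 (SE 0.28, adjusted p = 0.0422), while H2-Ab1 at 382, 349, 1495 and 986 CPM had 1.83 (SE 0.27, adjusted p = 0.0637). In stem-like cells H2-Aa was at 636, 579, 1273 and 1207 CPM and rose by 1.08 (SE 0.27, edgeR adjusted p = 0.0416). In cycling progenitor-like cells H2-Eb1 was at 495, 455, 1021 and 980 CPM and rose by 1.15 (SE 0.28, edgeR adjusted p = 0.0471). The groups did not overlap in any of these values. In enterocyte-like cells, by contrast, H2-Aa was at 1430, 1419, 1759 and 1489 CPM, H2-Ab1 at 1132, 1284, 1627 and 1007 CPM and H2-Eb1 at 712, 701, 832 and 606 CPM. For H2-Ab1 and H2-Eb1 allogeneic 2 lay below both syngeneic libraries, and the log2 fold changes were 0.36, 0.27 and 0.19 with standard errors of 0.33, 0.34 and 0.32.

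Cd74 (18:60803848-60812652, plus strand) rose in 3 classes, and its highest allogeneic class mean was 1.61 times its lowest. In goblet-like cells it was at 1634, 1457, 5716 and 6218 CPM and in Paneth-like cells at 1218, 1018, 3589 and 5643 CPM. It rose by 2.05 in goblet-like cells (SE 0.27, edgeR adjusted p = 0.0458) and by 2.13 in Paneth-like cells (SE 0.32, adjusted p = 0.00043). In enteroendocrine-like cells Cd74 was at 2069, 1945, 3860 and 4495 CPM and rose by 1.02 (SE 0.21, edgeR adjusted p = 0.0377). This call rests on 28 to 57 cells per library and was lost when cells with a UMI of 14 immune genes were left out, when classes were assigned cell by cell and under DESeq2. Tuft-like cells had Cd74 at 2014, 1754, 3012 and 4390 CPM, a log2 fold change of 1.03 (SE 0.23, edgeR adjusted p = 0.0676). In enterocyte-like cells Cd74 was at 4646, 4619, 5930 and 5920 CPM. Both allogeneic libraries were higher in CPM, with a mean 1.28 times the syngeneic mean. The edgeR log2 fold change, after TMM, was 0.54 (SE 0.37, adjusted p = 0.529).

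The H2-DM genes split into a pair that moved with the other members in Paneth-like and goblet-like cells and H2-DMb2, which went from nearly no UMIs to a clear signal. H2-DMa, the alpha chain, was at 52.2, 42.0, 142 and 119 CPM in Paneth-like cells and at 83.6, 75.1, 266 and 212 CPM in goblet-like cells. It rose by 1.53 in Paneth-like cells (SE 0.27, edgeR adjusted p = 0.00241) and had 1.67 in goblet-like cells (SE 0.24, adjusted p = 0.0546). In cycling progenitor-like and stem-like cells H2-DMa had 0.55 (SE 0.25) and 0.67 (SE 0.29), against 1.09 (SE 0.29) and 1.08 (SE 0.27) for H2-Aa. H2-DMb1, a beta chain, was at 49.2, 42.4, 127 and 125 CPM in Paneth-like cells and at 109, 89.1, 299 and 320 CPM in goblet-like cells. The groups were well apart in both classes: H2-DMb1 rose by 1.52 in Paneth-like cells (SE 0.27, edgeR adjusted p = 0.00241) and had 1.74 in goblet-like cells (SE 0.28, adjusted p = 0.0702). In enterocyte-like cells H2-DMb1 was at 190, 224, 223 and 188 CPM, and the groups overlapped.

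H2-DMb2, the other beta chain gene, had 1, 1, 114 and 39 UMIs in stem-like cells, which is 0.535, 0.785, 52.9 and 75.9 CPM. This was the highest allogeneic level of any class. The ratio of the pooled counts was 90.0, with an exact 95% counting interval from 24.5 to 750, and the edgeR log2 fold change was 6.44 (SE 0.56, adjusted p = 7.17e-07). Cycling progenitor-like cells had 6, 2, 135 and 396 UMIs, or 1.59, 0.660, 29.7 and 41.2 CPM, and a rise of 5.01 on the log2 scale (SE 0.45, edgeR adjusted p = 0.000339). Paneth-like cells had 2, 1, 23 and 15 UMIs, a pooled ratio of 41.1 with a counting interval from 13.0 to 208, and a rise of 5.25 (SE 0.57, edgeR adjusted p = 8.6e-06). In goblet-like cells both syngeneic libraries held 0 UMIs and the allogeneic ones held 125 and 93. Against a floor of 3 counts per syngeneic library, H2-DMb2 was at least 40.0-fold higher in allogeneic goblet-like cells (edgeR adjusted p = 0.0118). Enterocyte-like cells were the exception: they held 0, 0, 0 and 17 UMIs of H2-DMb2, in 443, 501, 369 and 1889 cells. Their allogeneic mean of 1.16 CPM was below the floor of the syngeneic libraries (1.62 CPM), so no fold is given. Tuft-like cells had 0, 0, 7 and 5 UMIs and enteroendocrine-like cells 0, 0, 8 and 0. Counting intervals and floors cover counting error only. Because H2-DMb2 met the filter on low counts only through its allogeneic counts, its edgeR p-values are a description and no separate support.

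H2-DMb1 and H2-DMb2 are near copies, and reads shared between them could be split by the counting, which was not tested on the reads. Their annotated transcripts are 94.4% identical over the aligned bases, with a longest identical run of 221 bases, but in the last 400 bases, where a 3′ library reads, identity is 70.2% and the longest identical run is 28 bases. H2-DMb2 per H2-DMb1 was 0.00488, 0.00255, 0.138 and 0.110 UMIs over all epithelial cells. Within allogeneic 2 this ratio was 0.375 in stem-like cells, 0.182 in cycling progenitor-like cells and 0.0124 in enterocyte-like cells. With the counts of both genes summed before the fit, the log2 fold change of the sum was 1.73 in Paneth-like cells (edgeR adjusted p = 0.000863), 1.07 in all epithelial cells (adjusted p = 0.285) and 0.17 in enterocyte-like cells (adjusted p = 0.83). In cycling progenitor-like cells the sum rose by 1.11 (adjusted p = 0.0451), where H2-DMb1 alone had 0.90 (adjusted p = 0.0928).

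**Figure D3:**
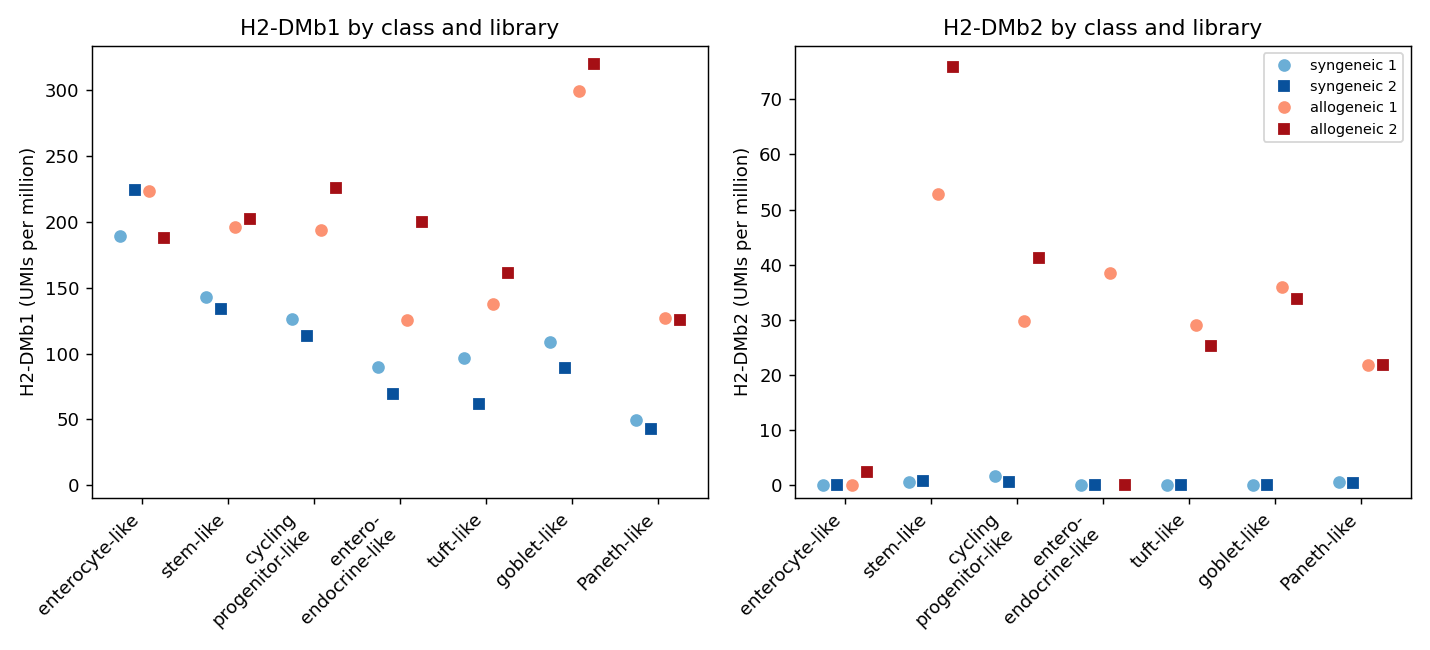
H2-DMb1 (left) and H2-DMb2 (right) in CPM (vertical axes, on different scales) in 7 epithelial classes (horizontal axis), with 1 point for each library. Every syngeneic H2-DMb2 point lies at or below 1.59, the allogeneic points reach 75.9 in stem-like cells, and the enterocyte-like points stay at or below 2.32.

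Ciita itself was counted sparsely and differed between the allogeneic libraries. In goblet-like cells it was at 20.1, 16.9, 78.1 and 41.5 CPM, in stem-like cells at 51.4, 42.4, 118 and 56.4 CPM, and in Paneth-like cells at 24.1, 20.0, 60.5 and 36.4 CPM. In each of these classes allogeneic 1 was well above allogeneic 2, and both were above the syngeneic libraries. Ciita rose by 1.22 in Paneth-like cells (SE 0.27, edgeR adjusted p = 0.0194), and had 1.74 in goblet-like cells (SE 0.28, adjusted p = 0.0718) and 1.01 in stem-like cells (SE 0.29, adjusted p = 0.0906). Enterocyte-like cells went the other way in CPM, at 42.1, 38.8, 32.5 and 28.4, with both allogeneic libraries below both syngeneic ones. That difference did not pass (log2 fold change -0.23, SE 0.27, edgeR adjusted p = 0.76), and with cells limited to 10% mitochondrial UMIs its sign turned to 0.18 (adjusted p = 0.777). The ratio of Ciita to Cd74 UMIs in allogeneic 2 was lower than in either syngeneic library in all 7 classes, for example 0.00667 against 0.0123 and 0.0116 in goblet-like cells, whereas in allogeneic 1 it was 0.0137.

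Whether the allogeneic effect itself differed between classes was tested with enterocyte-like cells as the class of comparison and the library as a block. The block takes out the spread of levels between pools. These p-values measure how differences between classes vary among libraries of a group, pooled over all classes. The effect was larger for 7 of 8 members in goblet-like cells (1.39% of all 11186 genes) and for 7 of 8 in Paneth-like cells (0.903%). The 7 were in both classes H2-Aa, H2-Ab1, H2-Eb1, Cd74, H2-DMa, H2-DMb1 and Ciita. H2-DMb2 is not compared in this way: enterocyte-like cells of both syngeneic libraries hold none, and a fold fitted against them is no measured size. For H2-Eb1 the goblet-like effect exceeded the enterocyte-like effect by 1.96 on the log2 scale (SE 0.19, edgeR adjusted p = 2.32e-10), and for H2-Aa the Paneth-like effect exceeded it by 2.06 (SE 0.19, adjusted p = 5.48e-11). The number of members with a larger effect was 3 in enteroendocrine-like cells (0.304%), 2 in cycling progenitor-like (2.02%), 2 in stem-like (1.05%) and 1 in tuft-like cells (0.232%). H2-Eb1 was among them in each of these 4 classes. Over all genes the median difference lay between -0.14 (enteroendocrine-like) and -0.05 (goblet-like). The 7 members compared ranged from 1.14 (H2-DMa) to 1.96 (H2-Eb1) in goblet-like cells. In Paneth-like cells they ranged from 0.98 (H2-DMa) to 2.06 (H2-Aa). Without syngeneic 1 the count was 6 in goblet-like (0.322% of all genes) and 4 in Paneth-like cells (0.131%), and 0 in cycling progenitor-like (0.218%), enteroendocrine-like (0.0348%), stem-like (0.148%) and tuft-like cells (0.0435%). Without syngeneic 2 it was 4 in goblet-like (0.206%) and 4 in Paneth-like cells (0.146%), and 0 in cycling progenitor-like (0.301%), enteroendocrine-like (0.043%), stem-like (0.103%) and tuft-like cells (0.0601%). Without allogeneic 1 it was 4 in cycling progenitor-like (4.51%) and 3 in tuft-like cells (0.685%). Without allogeneic 2 it was 5 in cycling progenitor-like (3.66%), 4 in stem-like (2.29%) and 2 in tuft-like cells (0.617%). The enterocyte-like class rests on different clusters in the groups, whose part in this difference was not tested. In goblet-like cells, the clusters that every library filled (376, 360, 329 and 360 cells) gave H2-Aa a log2 fold change of 2.80 (edgeR adjusted p = 0.00105), with 8 of 8 members and 1.05% of all genes called higher.

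Cell by cell, class II RNA was common in syngeneic crypts and was seen in most epithelial cells of allogeneic ones, less evenly in tuft-like cells. To compare cells of unequal depth, each cell was thinned to 2000 UMIs, and 198, 243, 181 and 639 shallower epithelial cells were left out. H2-Aa then had a UMI in 57.5%, 56.5%, 88.2% and 88.0% of epithelial cells (exact 95% binomial intervals 55.6 to 59.4, 54.4 to 58.6, 86.5 to 89.7 and 87.0 to 89.0). Without thinning the shares were 77.0%, 75.0%, 95.1% and 94.4%. In goblet-like cells the thinned share was 35.0%, 33.6%, 88.0% and 87.0%, and in Paneth-like cells 37.2%, 28.5%, 81.9% and 88.0%. Cycling progenitor-like cells were at 58.2%, 57.6%, 85.2% and 83.1%, stem-like cells at 64.2%, 64.8%, 91.2% and 91.1%, and enterocyte-like cells at 90.4%, 91.2%, 97.3% and 93.3%. In each of these classes both allogeneic libraries were above both syngeneic ones. H2-DMb2 had a UMI in 0.0752%, 0.0459%, 5.52% and 3.95% of thinned epithelial cells, and in stem-like cells in 0 of 430, 1 of 281, 33 of 297 and 15 of 90. By the limit of 3 counts that a count of 0 allows, the share in the 430 cells is up to 0.698%. Ciita was at 6.32%, 5.32%, 11.05% and 5.79%, so that allogeneic 2 fell between the syngeneic libraries at this depth.

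Free RNA from broken cells can give a UMI to a cell that does not express a gene, and T or NK-like cells of the mouse, which make little class II, give a measure of it. At 2000 UMIs H2-Aa had a UMI in 14.1% of 85 allogeneic 1 and 16.4% of 73 allogeneic 2 T or NK-like cells, and Cd74 in 21.2% and 27.4%. Their unthinned depth was far lower than that of epithelial cells, with medians of 1588 and 1597 UMIs against 5631 and 4063. The syngeneic libraries held only 6 and 9 T or NK-like cells of that depth, of which 2 and 1 had an H2-Aa UMI. The syngeneic 1 share of 33.3% has an exact interval from 4.33% to 77.7%, which holds the H2-Aa share of every named epithelial class of that library but the enterocyte-like one. The syngeneic 2 share of 11.1% has an interval from 0.281% to 48.3%, which holds the Paneth-like, goblet-like and tuft-like shares. At these cell numbers those shares could not be told from background. The allogeneic epithelial shares of H2-Aa given before are above the T or NK-like shares of their own libraries. H2-DMb2 had a UMI in 0 of 85 and 1 of 73 T or NK-like cells, and the same limit of 3 counts allows up to 3.53% in the 85 cells. The 73 cells of allogeneic 2 are too few to tell the H2-DMb2 share of 3.95% over all its epithelial cells from background. Over all 8 genes T or NK-like cells held 4575, 1481, 1021 and 1728 CPM, the first from 14 cells.

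In goblet-like cells the groups were apart over most of the range of cells. The 8 genes summed to a median of 20.5 and 17.8 UMIs per 10000 UMIs of a syngeneic goblet-like cell and of 106 and 98.1 in an allogeneic one. The 5th percentile in allogeneic goblet-like cells, at 48.2 and 45.8, was above the syngeneic medians. In tuft-like cells the spread was wider: the allogeneic 1 median was 28.8 with a 5th percentile of 0, near the syngeneic medians of 22.4 and 20.5, while the allogeneic 2 median was 57.5. Among tuft-like cells thinned to 2000 UMIs, Cd74 was seen in 37 of 51, 21 of 30, 19 of 32 and 22 of 22, so the 2 allogeneic libraries stood on either side of the syngeneic ones.

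**Figure D4:**
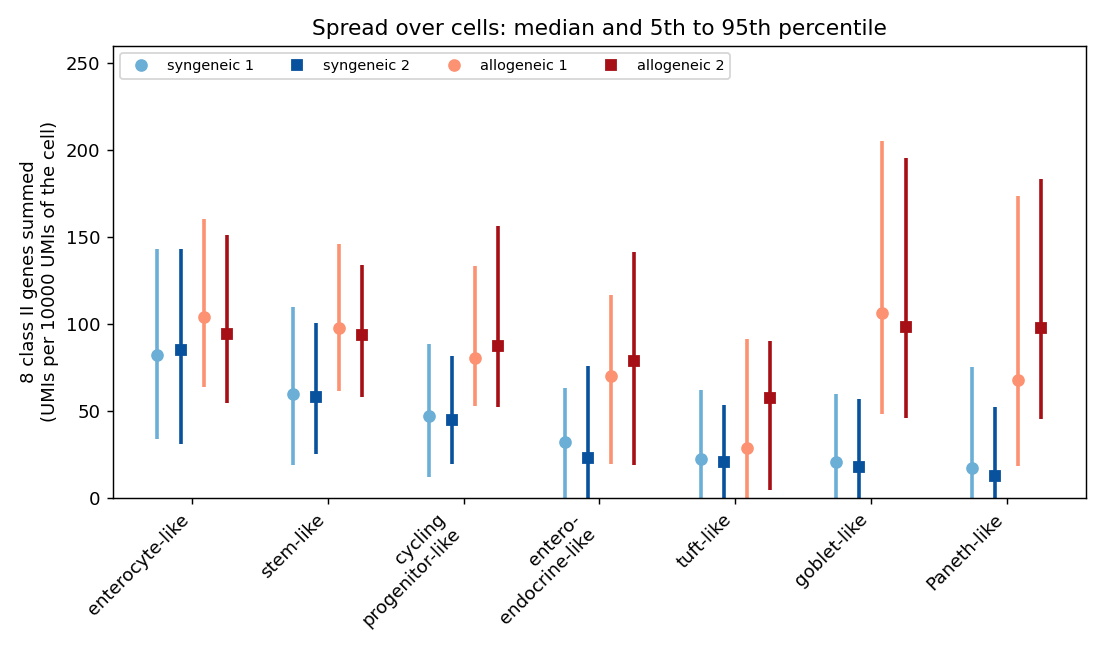
The 8 class II genes summed per cell, in UMIs per 10000 UMIs of the cell (vertical axis), in 7 epithelial classes (horizontal axis) and 4 libraries. Points are medians over cells and lines run from the 5th to the 95th percentile; the allogeneic goblet-like lines start at 45.8 and above, over the syngeneic medians of 20.5 and 17.8.

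Of the related class II genes, H2-Eb2, a second E beta chain gene, had 0, 1, 19 and 27 UMIs over all epithelial cells and a log2 fold change of 4.97 (SE 0.88, edgeR adjusted p = 0.146). H2-Oa and H2-Ob, the chains of the H2-DM inhibitor H2-O, had 0, 0, 2 and 1 UMIs and 0, 0, 1 and 0 UMIs, and H2-Ea was not analysed here.

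Of the other genes of the pathway, none passed the edgeR test over all epithelial cells and some passed within classes. A list of 43 genes for control of Ciita and class II promoters, peptide processing and traffic, and costimulation was used, of which 39 are in the files. Over all epithelial cells 34 were tested and 0 passed with edgeR, where 0.141% of all genes were called higher. At an unadjusted edgeR p under 0.05 there were 12, against 1189 of all 12036 genes. DESeq2 called 5 higher (Cd40, Cd274, Icam1, Socs1 and Tap1) and 1 lower (Socs3), against 195 and 122 of 12952 genes. The median log2 fold change of the 34 was 0.27, against 0.03 over all genes. The 5 with the largest log2 fold changes there were Cd40, Icam1, Socs1, Cd274 and Tap1. Cd40, the receptor through which T cells license presenting cells, was at 0.121, 0.224, 2.72 and 1.93 CPM (log2 fold change 3.75, SE 0.55, edgeR adjusted p = 0.112), and Icam1, an adhesion ligand of T cells, at 3.02, 3.80, 24.4 and 27.4 CPM (2.99, SE 0.31, adjusted p = 0.0516). Socs1, a brake on interferon signalling, was at 18.1, 20.1, 34.0 and 104 CPM (2.00, SE 0.63, adjusted p = 0.361). Cd274, the inhibitory ligand PD-L1, was at 2.78, 4.25, 7.85 and 15.7 CPM (1.87, SE 0.53, adjusted p = 0.317). Tap1, the peptide transporter of class I presentation, was at 65.6, 58.9, 213 and 157 CPM (1.59, SE 0.25, adjusted p = 0.118). In each of these 5 genes both allogeneic libraries lay above both syngeneic ones, as in 18.3% of all genes. The 5 were picked for their large fold changes in the same libraries, so this is a description and no separate support.

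Within classes, edgeR called 5 of 29 listed genes higher in Paneth-like cells (among them Icam1 and Tap1, with 1.21% of all genes called higher). In cycling progenitor-like cells it called 4 of 32 higher (Cd40, Cd274, Icam1 and Tap1, with 2.2%). Stem-like cells had 5 of 31 higher (Irf1, Socs1, Cd274, Icam1 and Tap1, with 1.25%). Goblet-like cells had 2 of 31 (Icam1 and Tap1, with 0.286%) and tuft-like cells 1 of 16 (Tap1, with 0.645%). Socs3, a brake on interleukin-6 type signals, was called lower in cycling progenitor-like and stem-like cells, with log2 fold changes of -1.90 (SE 0.29, edgeR adjusted p = 0.00401) and -1.58 (SE 0.38, adjusted p = 0.032). None of 28 genes passed in enterocyte-like cells (1.23% of all genes were called higher) and none of 16 in enteroendocrine-like cells (0.652%). There 5 and 3 listed genes had an unadjusted edgeR p under 0.05, as did 1166 of all 7382 and 198 of all 3222 genes. DESeq2 called 0 listed genes in each, against 152 of 8927 and 12 of 2675 genes called higher. The values of Socs3 and Irf1 were chosen for printing after they had been seen. Irf1, a transcription factor that acts on the Ciita promoter, was at 75.5, 76.9, 173 and 280 CPM in stem-like cells and rose by 1.61 (SE 0.31, edgeR adjusted p = 0.00667).

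Across the 28 class sums (7 classes in 4 libraries), the 5 genes whose log2 CPM was most like the mean z-score of H2-Aa, H2-Ab1, H2-Eb1 and Cd74, among 12028 compared, included B2m (Pearson r = 0.95), H2-K1 (0.92), H2-T23 (0.92) and Irf8 (0.91). The points share libraries and depth, so this is a description. Of the other members, H2-DMb1 and H2-DMa each had r = 0.93, Ciita 0.73 and H2-DMb2 0.51.

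Markers of other cell types were low in the epithelial sums and did not all separate the groups. The 18 T or NK markers summed to 24.3, 5.07, 17.4 and 17.5 CPM in epithelial cells. Within goblet-like cells their sum was 4.44, 1.92, 20.7 and 13.1 CPM, and within stem-like cells 2.68, 0.785, 40.3 and 13.6 CPM. In goblet-like and stem-like cells both allogeneic libraries were thus above both syngeneic ones, while in the other classes the groups overlapped. The part of this T or NK signal in the class II differences was not tested. The 20 myeloid markers summed to 22.9, 27.2, 25.7 and 18.1 CPM, of which Cd14 gave 70.8% and 3 were at 0 in every library (Adgre1, Flt3 and Xcr1). The 14 B or plasma cell markers gave 171, 175, 151 and 107 CPM, of which Xbp1, which goblet and Paneth cells also make, gave 97.7%, and 5 were at 0 in every library, among them Ighd and Pax5. The 12 stromal and endothelial markers gave 0.664, 0.224, 8.73 and 9.41 CPM, and in these the allogeneic libraries were higher. Acta2 gave 71.5% of that sum and 4 of the markers were at 0 (Pdgfra, Cdh5, Kdr and Lum), and its part in the differences was not tested. The myeloid-like cells themselves, 13 and 5 in the allogeneic libraries, held 5924 and 2568 CPM of the 8 genes. Cells with a UMI of any of 14 immune genes made up 2.42%, 2.52%, 6.08% and 2.97% of epithelial cells. With these cells left out, the log2 fold change of H2-DMb2 over all epithelial cells was 5.82 (edgeR adjusted p = 0.0297) and that of H2-Aa in goblet-like cells 2.25 (adjusted p = 0.0321).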

How the data were processed

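Single-cell RNA of small-intestinal crypt cells was measured with 10x 3′ libraries in 2 syngeneic and 2 allogeneic pools of mice. The authors deposited UMI counts per gene and barcode, with no normalization. Cell Ranger 2.1.1 and the mm10 build are named per the submitters' processing notes, while the software version in the matrix headers is 3.1.0, and for the gene annotation and the rule that kept barcodes the sources used here give nothing. The dense text copies of the matrices were not used.

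Barcodes with at least 500 genes, at least 1000 UMIs and at most 20% mitochondrial UMIs were kept, and 89 doublets (0.7245%) called by Scrublet were removed. Cells were scaled to 10000 UMIs and clustered (scanpy 1.11.5, 2000 variable genes, 30 components, 15 neighbours, Leiden resolution 1, 24 clusters). The members, the pathway list and interferon response genes, 165 in all, were left out of the variable genes. Clusters were named from marker lists, and those that did not meet the naming rule stayed unnamed.

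Counts were summed per library and class. Differences were tested with edgeR 4.0.16 (R 4.3.3; filterByExpr, TMM, quasi-likelihood test, Benjamini-Hochberg adjustment over all genes tested, threshold 0.05). Differences between classes were tested as an interaction with the library as a block. DESeq2 1.42.0 and limma 3.58.1 (voom) were alternatives, beside other filters, cell classes and thinning depths and leaving out each library. Pearson correlations used log2 CPM with a prior count of 2. The test was checked on simulated data for each class. In goblet-like cells (10142 genes) 78% of simulated 4-fold changes and 7% of simulated 2-fold changes were called. In all epithelial cells (12036 genes) the shares were 89% and 22%, in enterocyte-like cells (7382 genes) 83% and 12%, and in tuft-like cells (3564 genes) 76% and 21%. Most 2-fold changes would thus be missed. Intervals for shares are exact binomial at 95%.

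The members, gene lists and tests were chosen with earlier results of these data known. Named genes are the 8 members, H2-Eb2, H2-Oa and H2-Ob, the 5 listed pathway genes with the largest change where none passed, and the 5 genes with the most similar pattern. Some items these rules would name are not reported here. Replicate numbers follow the order of deposition and pair no samples.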

Additional observations from a re-analysis of the deposited data

Results flagged for a closer look

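For 22 combinations of member and class, the allogeneic effect was larger than in enterocyte-like cells by the edgeR interaction test, with the library as a block and adjustment over all genes. Values are differences of log2 fold changes, and the p-values do not measure the spread of levels between pools. The enterocyte-like class is made of different clusters in the syngeneic and allogeneic libraries, and their part in these differences was not tested.

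In Paneth-like cells the difference was 2.06 for H2-Aa (edgeR adjusted p = 5.48e-11), 1.72 for H2-Eb1 (7.26e-09), 1.58 for H2-Ab1 (1.44e-08), 1.45 for Cd74 (6.84e-09), 1.27 for H2-DMb1 (0.000308), 1.19 for Ciita (0.034) and 0.98 for H2-DMa (0.00704). In goblet-like cells it was 1.96 for H2-Eb1 (edgeR adjusted p = 2.32e-10), 1.81 for H2-Aa (1.08e-09), 1.77 for Ciita (8.52e-05), 1.51 for H2-DMb1 (1.92e-06), 1.49 for H2-Ab1 (4.75e-08), 1.43 for Cd74 (6.39e-09) and 1.14 for H2-DMa (0.000414).

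The other classes had fewer and smaller differences. Enteroendocrine-like cells differed by 1.04 for H2-Eb1 (edgeR adjusted p = 0.00173), 0.93 for H2-Ab1 (0.00315) and 0.77 for H2-Aa (0.0334). Cycling progenitor-like cells differed by 0.88 for H2-Eb1 (0.00169) and 0.63 for H2-Aa (0.0264), stem-like cells by 0.68 for H2-Eb1 (0.0318) and 0.64 for H2-Aa (0.0427), and tuft-like cells by 0.80 for H2-Eb1 (0.0391).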

How the results depend on the processing

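Over 578 refits of single members in single classes, 440 kept their direction and their side of the threshold, 103 newly passed it, 34 no longer passed it and 1 changed sign: Ciita in enterocyte-like cells, 0.18 with a mitochondrial limit of 10%. Leaving out 1 library in turn gave 2 to 8 members called higher in Paneth-like, 1 to 8 in cycling progenitor-like, goblet-like, stem-like and all epithelial cells, 0 to 5 in enteroendocrine-like and tuft-like and 0 to 3 in enterocyte-like cells. The members with an effect larger than in enterocyte-like cells then numbered 4 to 7 in Paneth-like and goblet-like, 0 to 5 in cycling progenitor-like, 0 to 4 in enteroendocrine-like and stem-like and 0 to 3 in tuft-like cells, and limma-voom gave 8 in goblet-like (H2-DMb2 included), 5 in Paneth-like, 1 in cycling progenitor-like and 0 in enteroendocrine-like, stem-like and tuft-like cells. Of 11186 genes, limma-voom called 68 higher in goblet-like, 64 in Paneth-like, 109 in cycling progenitor-like, 27 in enteroendocrine-like, 59 in stem-like and 19 in tuft-like cells. The goblet-like count of 8 holds H2-DMb2, whose fold against enterocyte-like cells without a syngeneic UMI is no measured size. DESeq2 called 5 members in all epithelial, 6 in cycling progenitor-like, 0 in enteroendocrine-like and 8 in goblet-like cells. It called 195 of 12952, 198 of 11207, 12 of 2675 and 97 of 10818 genes higher there. With no filter on low counts, 4 members were called in cycling progenitor-like, 8 in goblet-like and 2 in tuft-like cells. Of all genes, 503 of 15383, 348 of 15255 and 77 of 12481 were then called higher. A mitochondrial limit of 10% gave 8 members in goblet-like cells, with 56 of 9756 genes called higher. Without cells holding a UMI of the immune genes, and with classes assigned per cell, 1 was called in cycling progenitor-like and 0 in enteroendocrine-like cells. The first setting called 191 of 10145 and 12 of 2885 genes higher in these classes, and the second 182 of 10269 and 9 of 2315. Using only clusters held by every library, 6 were called in cycling progenitor-like (165 of 8880 genes) and 8 in goblet-like cells (96 of 9143 genes). That alternative was chosen after seeing the data, as was leaving out libraries from the interaction test. The cause of these differences was not tested. Over all genes, 17 were called higher in all epithelial cells and 29 in goblet-like cells, against 289 and 348 with no filter and 195 and 97 with DESeq2.

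Counts of members, syngeneic class sums and shares of cells were less stable than the single members. Under the other settings 61 of these values stayed within the set limits of the main setting and 78 moved. Classes assigned per cell moved the syngeneic sum of the 8 genes to 4501 CPM in cycling progenitor-like, 7829 in enterocyte-like, 2240 in goblet-like and 5504 in stem-like cells. Shares of cells moved with depth. At 1500 UMIs, 3000 UMIs and without thinning, H2-Aa was seen in 50.7%, 65.7% and 76.0% of syngeneic and 79.8%, 94.7% and 94.8% of allogeneic epithelial cells. H2-DMb2 was seen in 3.33%, 6.76% and 11.6% of allogeneic cells, and in 0.240% of syngeneic cells both at 3000 UMIs and without thinning. Ciita was seen in 4.66%, 8.53% and 14.4% of syngeneic cells, and in 13.3% (3000 UMIs) and 22.5% (without thinning) of allogeneic cells. No paired analysis was possible because the labels give no replicate numbers and the numbers used here follow the order of deposition.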

Other observations

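Clusters that met no naming rule also carried class II RNA. A cluster led by Fabp6 and Reg3b, with 258 and 232 syngeneic cells and 16 and 2 allogeneic cells, held 6212 and 6001 CPM of the 8 genes in the syngeneic libraries. All unnamed cells together held 6222, 6006, 8619 and 7684 CPM, and H2-DMb2 had 1, 0, 0 and 11 UMIs there.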
